A study of Mus musculus with 12 samples.

Results

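The ADAM and ADAMTS genes encode metalloproteases and their close relatives. ADAMs ("a disintegrin and metalloprotease") sit in the cell membrane, and those with an active catalytic site cut the outer part off other membrane proteins, a step called shedding that releases cytokines and growth factors and starts Notch signalling. ADAMTS proteases are secreted, carry thrombospondin repeats, and cleave procollagens, proteoglycans and other matrix proteins. ADAMTS-like proteins share the repeats but have no protease domain. In fibrotic liver these enzymes meet a matrix that is being laid down by activated hepatic stellate cells. Members were all genes whose array annotation symbol begins with Adam, read from probe sets that carry a single symbol. This gave 49 genes of 18193 on the array, covered by 83 probe sets. Where a gene had several, the brightest on average across the 12 arrays stood for it.

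The arrays measured total RNA from livers of male Balb/c mice, 3 arrays in each of 4 groups. The mice were 8 weeks old when obtained, and the livers were taken after acclimatization and 6 weeks of treatment. The shLFAR1+CCl4 mice received CCl4, a hepatotoxin that causes fibrosis, and a lentivirus with a short hairpin RNA against the long noncoding RNA lnc-LFAR1. NC+CCl4 mice received CCl4 and a control lentivirus (Lenti-NC), shLFAR1 mice received olive oil and the hairpin virus, and NC mice received oil and the control virus. CCl4 was 5% in olive oil at 0.3 ml/kg, given into the peritoneum 3 times per week, and the virus entered by a tail vein injection when CCl4 had been given for 2 weeks, with 4 weeks of treatment following. All 4 groups thus carried a lentivirus and an oil vehicle. The virus was not directed to a cell type, and no probe set on the array carries the name of lnc-LFAR1, so the knockdown could not be checked here. The paper reports silencing by quantitative PCR in whole liver extracts and in primary stellate cells. It names a single hairpin for the CCl4 model, so effects particular to that hairpin cannot be told apart. Albumin, the main hepatocyte secretory product, had a mean log2 value of 14.3 in shLFAR1 livers and lay near the top of the range on every array.

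Values are log2 intensities, and a difference of 1 on this scale is a doubling. They do not compare levels between genes, because each probe set binds with its own strength. No detection calls were used, so a low value may be background. The procollagen propeptidases Adamts2 and Adamts14, the von Willebrand factor protease Adamts13 and Adamts17 were not analysed here.

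Replicate 3 of shLFAR1+CCl4 stood apart from the other shLFAR1+CCl4 arrays. On the first principal component of all genes it scored 39.2, against -6.80 and -9.66 for replicates 1 and 2, while the NC+CCl4 arrays scored 34.8 to 48.8 and the oil groups -26.7 to -20.4. The first component of the 49 members alone, which held 66.9% of their variance, placed it in the same way, at 2.52 beside -0.48 and -0.43. Replicate 1 of NC+CCl4 stood apart in the difference between its 3' and 5' Gapdh control probe sets, a sign of RNA integrity, with 0.716 against -0.205 to 0.033 on the other arrays. Values without these arrays are given beside the results that they moved most.

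CCl4 with the control virus raised 7 members and lowered none. These 7 were the aggrecanase Adamts5, the versican protease Adamts9, the sheddases Adam10, Adam12 and Adam19, the matrix protease Adamts12, and Adam11, which has no catalytic site. They made up 14.3% of the family, where 13.1% of all 18193 genes were called in either direction, 7.66% higher and 5.41% lower (NC+CCl4 against NC, limma, adjusted p under 0.05). The share called in either direction was near that of all genes. Of the 49 members, 12 had a mean level above the median of all genes, so the family is mostly dim genes set beside all genes. In whole liver, a change in the number of cells of a type and a change in RNA per cell cannot be told apart. Without adjustment, 12 of 49 members had p under 0.05, or 24.5%, against 27.1% of all genes. The median log2 change was -0.01 over the family and -0.05 over all genes.

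For 4 of the 7 raised genes the RefSeq promoter table (GRCm38.p6) had a window, and it had none for Adam11, Adam12 or Adamts5. The 250 bases before the annotated start are printed because these members were each called higher in NC+CCl4 against NC. Whether they share regulation was not tested. Capitals mark matches on either strand to any of 4 motifs: the GC box GGGCGG, the TATA box TATAAA, the Smad-binding CAGAC and the AP-1 site TGANTCA. For Adam19, which had 3 windows, the one shown was picked because it holds an AP-1 match, which its other windows lack.
Adam10, chr9:70678732-70678981, plus strand: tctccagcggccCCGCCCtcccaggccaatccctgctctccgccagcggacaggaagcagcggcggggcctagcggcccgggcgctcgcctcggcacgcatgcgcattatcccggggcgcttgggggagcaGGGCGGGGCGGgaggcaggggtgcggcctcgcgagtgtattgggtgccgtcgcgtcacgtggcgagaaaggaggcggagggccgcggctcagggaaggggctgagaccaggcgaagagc
Adam19, chr11:46055734-46055983, plus strand: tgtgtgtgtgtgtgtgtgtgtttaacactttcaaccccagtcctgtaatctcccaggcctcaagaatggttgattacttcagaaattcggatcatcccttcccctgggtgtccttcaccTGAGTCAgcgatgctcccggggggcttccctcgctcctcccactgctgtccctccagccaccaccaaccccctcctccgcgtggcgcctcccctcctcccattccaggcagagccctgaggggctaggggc
Adamts9, chr6:92943535-92943784, minus strand: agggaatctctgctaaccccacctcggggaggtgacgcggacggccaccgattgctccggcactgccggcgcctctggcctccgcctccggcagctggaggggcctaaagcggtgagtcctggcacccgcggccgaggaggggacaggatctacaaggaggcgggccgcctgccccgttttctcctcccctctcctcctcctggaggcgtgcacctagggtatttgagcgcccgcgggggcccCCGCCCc
Adamts12, chr15:11064523-11064772, plus strand: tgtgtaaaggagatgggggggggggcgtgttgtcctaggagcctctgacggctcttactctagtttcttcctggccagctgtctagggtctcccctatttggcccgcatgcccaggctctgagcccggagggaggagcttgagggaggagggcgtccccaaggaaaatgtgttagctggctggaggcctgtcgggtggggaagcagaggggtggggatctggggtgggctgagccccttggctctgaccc

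Adam10 held 3 GC boxes, 2 of which share a base in the longer run of capitals, and Adamts9 held 1. The Adam19 window held 1 AP-1 site, the other Adam19 windows held 1 CAGAC each, and the Adamts12 window held none of the 4 motifs. Of all 32851 windows of this length, 32.7% held a GC box, 12.4% a TATA box, 42.2% a CAGAC and 6.75% an AP-1 site. The windows shown had a GC content of 74% for Adam10, 71.2% for Adamts9, 63.2% for Adamts12 and 60% for Adam19, against a median of 52.4% over all windows. The Adam19 windows not shown had 50% and 58.4%. A match is a description of the sequence and was not tested as a binding site.

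Among the ADAMTS proteoglycanases, which cleave aggrecan and versican, 2 of 7 rose with CCl4. Adamts5, the main aggrecanase of mouse cartilage, had log2 values of 6.71, 6.59 and 7.43 in NC+CCl4 livers and 4.37, 4.88 and 5.02 in NC livers. All NC+CCl4 arrays lay above all NC arrays, and the gap was the widest of the family. The log2 change was 2.16 ± 0.27 (SE, n = 3 each), a 4.46-fold rise with adjusted p = 0.00072. Adamts9, which cleaves versican, had 6.12, 6.04 and 5.76 in NC+CCl4 livers and 4.83, 4.95 and 5.22 in NC livers. The groups did not overlap, and the log2 change was 0.97 ± 0.16, 1.96-fold with adjusted p = 0.00275. Both genes were called under all 23 alternative settings, but with the mean of all probe sets the change was 1.12 for Adamts5 and 0.38 for Adamts9.

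The other 5 proteoglycanases were not called. Adamts1, an aggrecanase and versicanase, had 6.14, 5.77 and 6.78 in NC+CCl4 livers and 5.80, 5.94 and 5.65 in NC livers, a log2 change of 0.43 ± 0.25 with adjusted p = 0.307. Its CCl4 arrays spread over more than the distance between the group means. Adamts4, the other main aggrecanase, changed by 0.02, with a 95% interval of -0.23 to 0.26. Adamts8, Adamts15 and Adamts20 were not called either.

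Of 10 somatic ADAM proteinases, 3 rose. Adam10, the principal sheddase of Notch receptors and of E-cadherin, had 8.66, 8.92 and 8.93 in NC+CCl4 livers and 8.11, 7.85 and 8.03 in NC livers. This was a change of 0.84 ± 0.15 in log2 value, 1.79-fold with adjusted p = 0.0035, and the groups did not overlap. Adam12, a sheddase of heparin-binding EGF that mesenchymal cells make, had 4.59, 4.91 and 4.75 in NC+CCl4 livers and 3.72, 3.95 and 4.00 in NC livers. Its log2 change was 0.86 ± 0.18 (1.82-fold, adjusted p = 0.00959), and the groups did not overlap. Adam19, which cleaves neuregulins, had 4.53, 4.43 and 4.20 in NC+CCl4 livers and 3.97, 3.51 and 4.04 in NC livers, a change of 0.54 ± 0.16 (1.46-fold, adjusted p = 0.044). The call for Adam19 was lost in 15 of 22 alternatives, among them the omission of shLFAR1+CCl4 replicate 2, of NC+CCl4 replicate 1 or 2, of any shLFAR1 array, and of NC replicate 1 or 2 (adjusted p up to 0.17, without NC replicate 2).

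Adam8, a sheddase of leukocytes, had the highest fold of the family after Adamts5 but missed the threshold. Its log2 values were 6.21, 6.66 and 6.26 in NC+CCl4 livers and 4.82, 4.79 and 5.21 in NC livers, a change of 1.44 ± 0.45 or 2.71-fold with adjusted p = 0.0538. The arrays of the groups did not overlap. It was called when any shLFAR1+CCl4 array was left out, with adjusted p = 0.037, 0.0489 and 0.000162 without replicate 1, 2 and 3. It was also called with the replicate block (adjusted p = 0.041), and when only the 6 NC+CCl4 and NC arrays were fitted. Its SD was 0.25 in NC+CCl4 and 0.23 in NC but 1.27 in shLFAR1+CCl4, which enters the pooled spread. It was not called when any NC+CCl4, shLFAR1 or NC array was left out, with adjusted p from 0.0699 to 0.145 and 0.086 without NC+CCl4 replicate 1. In all it was called in 9 of 23 alternatives.

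Other membrane proteases gave small changes. Adam17, the TNF-alpha converting enzyme, had 6.66, 7.04 and 6.93 in NC+CCl4 livers and 6.63, 6.47 and 6.75 in NC livers (log2 change 0.27 ± 0.14, adjusted p = 0.235). Adam15 had 6.24, 6.75 and 6.57 in NC+CCl4 livers and 6.38, 6.15 and 6.42 in NC livers, a change of 0.21 ± 0.15 with adjusted p = 0.41. Adam9 had 9.29, 9.15 and 9.35 in NC+CCl4 livers and 9.21, 9.27 and 9.20 in NC livers. The 95% interval of its change ran from -0.16 to 0.23, the narrowest of the 10 somatic genes. Adam28, Adam33 and Adamdec1, a soluble relative made by gut macrophages, had log2 changes between -0.24 and 0.12 with none called.

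Adam11, one of 3 catalytically inactive ADAMs known from nervous tissue, had 6.42, 6.0 and 6.36 in NC+CCl4 livers and 5.75, 5.61 and 5.35 in NC livers. The change was 0.69 ± 0.18, 1.61-fold, with adjusted p = 0.0259. The call was lost when NC+CCl4 replicate 1 or 3 or NC replicate 2 or 3 was left out (adjusted p from 0.0686 to 0.0904), and with the mean of all probe sets. Its relative Adam23 changed by 0.35 ± 0.14 and Adam22 by -0.16, and neither was called.

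Adamts12 and Adamts7 both cleave cartilage oligomeric matrix protein. Adamts12 had 4.69, 5.25 and 4.52 in NC+CCl4 livers and 3.50, 3.59 and 3.55 in NC livers. Its NC arrays lay close together while its CCl4 arrays were spread widely, and the change was 1.27 ± 0.37 (2.42-fold, adjusted p = 0.0405). The call was lost in 11 of 22 alternatives, among them the omission of any NC+CCl4, shLFAR1 or NC array, with adjusted p up to 0.113 without NC+CCl4 replicate 2. Adamts7 changed by 0.61 ± 0.29 in log2 value (adjusted p = 0.198).

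Adamtsl2, an ADAMTS-like protein that binds fibrillin and latent TGF-beta binding protein, had 7.45, 6.99 and 7.43 in NC+CCl4 livers and 6.36, 6.85 and 6.90 in NC livers. Its change of 0.59 ± 0.20 (1.5-fold) had adjusted p = 0.0761, although its arrays did not overlap. The other 4 ADAMTS-like genes changed by -0.26 to 0.05 and were not called. The propeptidase Adamts3 changed by -0.13 ± 0.11. None of the 5 other ADAMTS genes was called, although Adamts6 had a change of -0.24 with non-overlapping arrays. The 16 ADAMs of testis and the reproductive tract, among them fertilins that act in sperm, stayed in a range of -0.30 to 0.06 with a median of -0.10, and none was called. Their mean log2 level was 3.22 in NC+CCl4 and 3.32 in NC arrays, where the median of gene means over all genes was 5.59. At values that may be background, the lack of a change does not show how these genes respond.

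**Figure D1:**
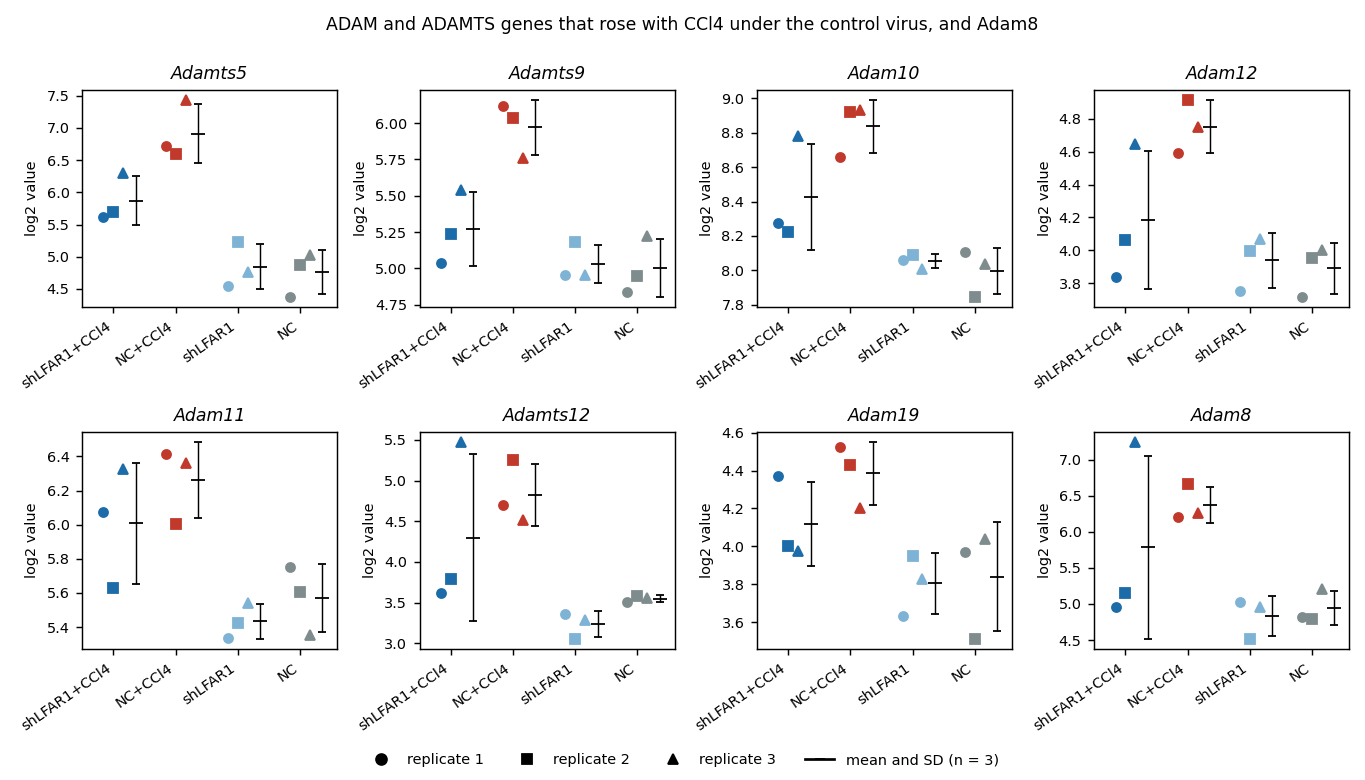
Log2 values on each array for the 7 members called in NC+CCl4 against NC and for Adam8, with the groups from shLFAR1+CCl4 at the left to NC at the right. Points are arrays, and the bars beside them are mean and SD (n = 3). In all 8 genes the NC+CCl4 arrays lie above the NC arrays, while shLFAR1+CCl4 replicate 3 (triangle) of Adam8 reaches 7.25 and its replicates 1 and 2 lie at 4.96 and 5.15.

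The arrays of a group did not overlap in the higher direction for 11 of 49 members, 22.4%, against 13.8% of all genes, and in the lower direction for 5, 10.2%, against 15.8% of all genes. At a fold over 1.6 with unadjusted p under 0.05, the threshold named in the methods, 7 members passed, all higher, or 14.3%, where 8.84% of all genes passed, 6.67% higher and 2.17% lower.

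CCl4 with the hairpin virus gave no called member (shLFAR1+CCl4 against shLFAR1), in a contrast that called 0.407% of all genes, 0.324% higher and 0.0824% lower. Without adjustment 5 of 49 had p under 0.05, or 10.2%, against 10.8% of all genes. At the threshold of the methods, Adamts5 and Adamts12 passed, both higher, or 4.08% against 2.65% of all genes, 2.14% higher and 0.517% lower. Arrays did not overlap in the higher direction for 6 members, against 8.41% of all genes, and in the lower for 2, against 11.7%. The smallest p belonged to Adamts5, which had 5.62, 5.69 and 6.30 in shLFAR1+CCl4 livers and 4.55, 5.23 and 4.76 in shLFAR1 livers. Its change was 1.02 ± 0.27, 2.03-fold with adjusted p = 0.15, and the arrays did not overlap. Adam11 followed with 6.07, 5.63 and 6.33 in shLFAR1+CCl4 livers and 5.34, 5.42 and 5.54 in shLFAR1 livers, a change of 0.58 ± 0.18 (adjusted p = 0.245). Adamts12 had 3.62, 3.79 and 5.47 in shLFAR1+CCl4 livers and 3.36, 3.05 and 3.29 in shLFAR1 livers, where replicate 3 was far above its group (1.06 ± 0.37, adjusted p = 0.302). Without that array the change of Adamts12 was 0.47, that of Adamts5 0.81 and that of Adam11 0.42, and none was called.

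The remaining called genes had smaller changes in that contrast. The log2 change was 0.37 ± 0.15 for Adam10, 0.31 ± 0.16 for Adam19, 0.24 ± 0.16 for Adamts9 and 0.24 ± 0.18 for Adam12. Without shLFAR1+CCl4 replicate 3 it was 0.20 for Adam10, 0.38 for Adam19, 0.11 for Adamts9 and 0.013 for Adam12. With all arrays, each is lower than the control virus response of 0.84, 0.54, 0.97 and 0.86. The 7 genes were picked by their response under the control virus, so the smaller values are a description of this selection and support nothing by themselves.

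**Figure D2:**
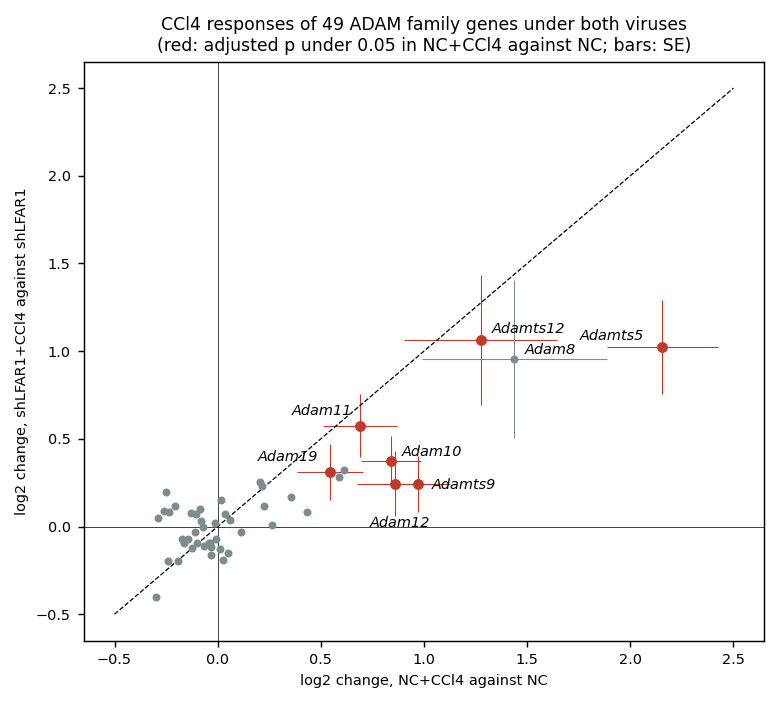
Log2 change in shLFAR1+CCl4 against shLFAR1 (vertical axis) plotted for each of 49 members over the change in NC+CCl4 against NC (horizontal axis), with SE bars for 8 genes. The contrasts share no arrays, red points are the 7 genes called on the horizontal axis, and these fall below the dashed line of equal change, with Adamts5 at 2.16 and 1.02.

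Knockdown within CCl4-treated livers (shLFAR1+CCl4 against NC+CCl4) called no member either, where 0.291% of all genes were called, 0.176% higher and 0.115% lower. An unadjusted p under 0.05 was reached by 5 of 49 members, or 10.2%, against 14.2% of all genes. At the threshold of the methods Adamts5 and Adamts9 passed, both lower, or 4.08% against 3.89% of all genes, 0.901% higher and 2.98% lower. Arrays did not overlap for 3 members in each direction, 6.12%, against 7.2% of all genes higher and 5.11% lower. This contrast shares the NC+CCl4 arrays with the control virus response. Adamts9 had the smallest p, with 5.04, 5.24 and 5.54 in shLFAR1+CCl4 livers and 6.12, 6.04 and 5.76 in NC+CCl4 livers. The groups did not overlap, and the change was -0.70 ± 0.16 (1.63-fold lower, adjusted p = 0.0855). Adamts5 had 5.62, 5.69 and 6.30 in shLFAR1+CCl4 livers and 6.71, 6.59 and 7.43 in NC+CCl4 livers, again without overlap, a change of -1.04 ± 0.27 (adjusted p = 0.109). Adam12 had 3.84, 4.06 and 4.65 in shLFAR1+CCl4 livers and 4.59, 4.91 and 4.75 in NC+CCl4 livers, a change of -0.57 ± 0.18 (adjusted p = 0.18), and replicate 3 of shLFAR1+CCl4 reached into the NC+CCl4 range.

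Without shLFAR1+CCl4 replicate 3, 6 members were called in this contrast, all lower: Adam8, Adam10, Adam12, Adamts5, Adamts9 and Adamts12. They were 12.2% of the family, while 7.29% of all genes were then called and 4.9% lower. That array was singled out by its values, which lay near NC+CCl4 also on the component of the members. Its omission therefore favours lower calls, and the calls support nothing by themselves. The change of Adamts5 was -1.26 (adjusted p = 0.0151) and that of Adamts9 -0.84 (adjusted p = 0.0079). Adam10 had -0.59 (adjusted p = 0.0123) and Adam12 -0.80 (adjusted p = 0.00632). Adamts12 had -1.12, against -0.53 with all arrays, and Adam8 -1.32, against -0.59. Without both this array and NC+CCl4 replicate 1, the same 6 members were called lower, where 8.47% of all genes were called, 3.64% higher and 4.83% lower. Without NC+CCl4 replicate 1 alone none was called, where 0.187% of all genes were. Without NC+CCl4 replicate 2 none was called either, where 3% of all genes were, 0.874% higher and 2.13% lower. The same held without shLFAR1+CCl4 replicate 1 or 2, where 0.022% and 0.044% of all genes were called. With all arrays kept but weighted by their spread, 4 were called lower, namely Adam10, Adam12, Adamts5 and Adamts9, or 8.16% against 5.05% of all genes, 3.08% lower. The replicate number was also used as a block within the 6 CCl4 arrays, a pairing that the labels do not give. No member was called with it (adjusted p of Adamts5 = 0.198, of Adamts9 = 0.331), and 0% of all genes were.

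**Figure D3:**
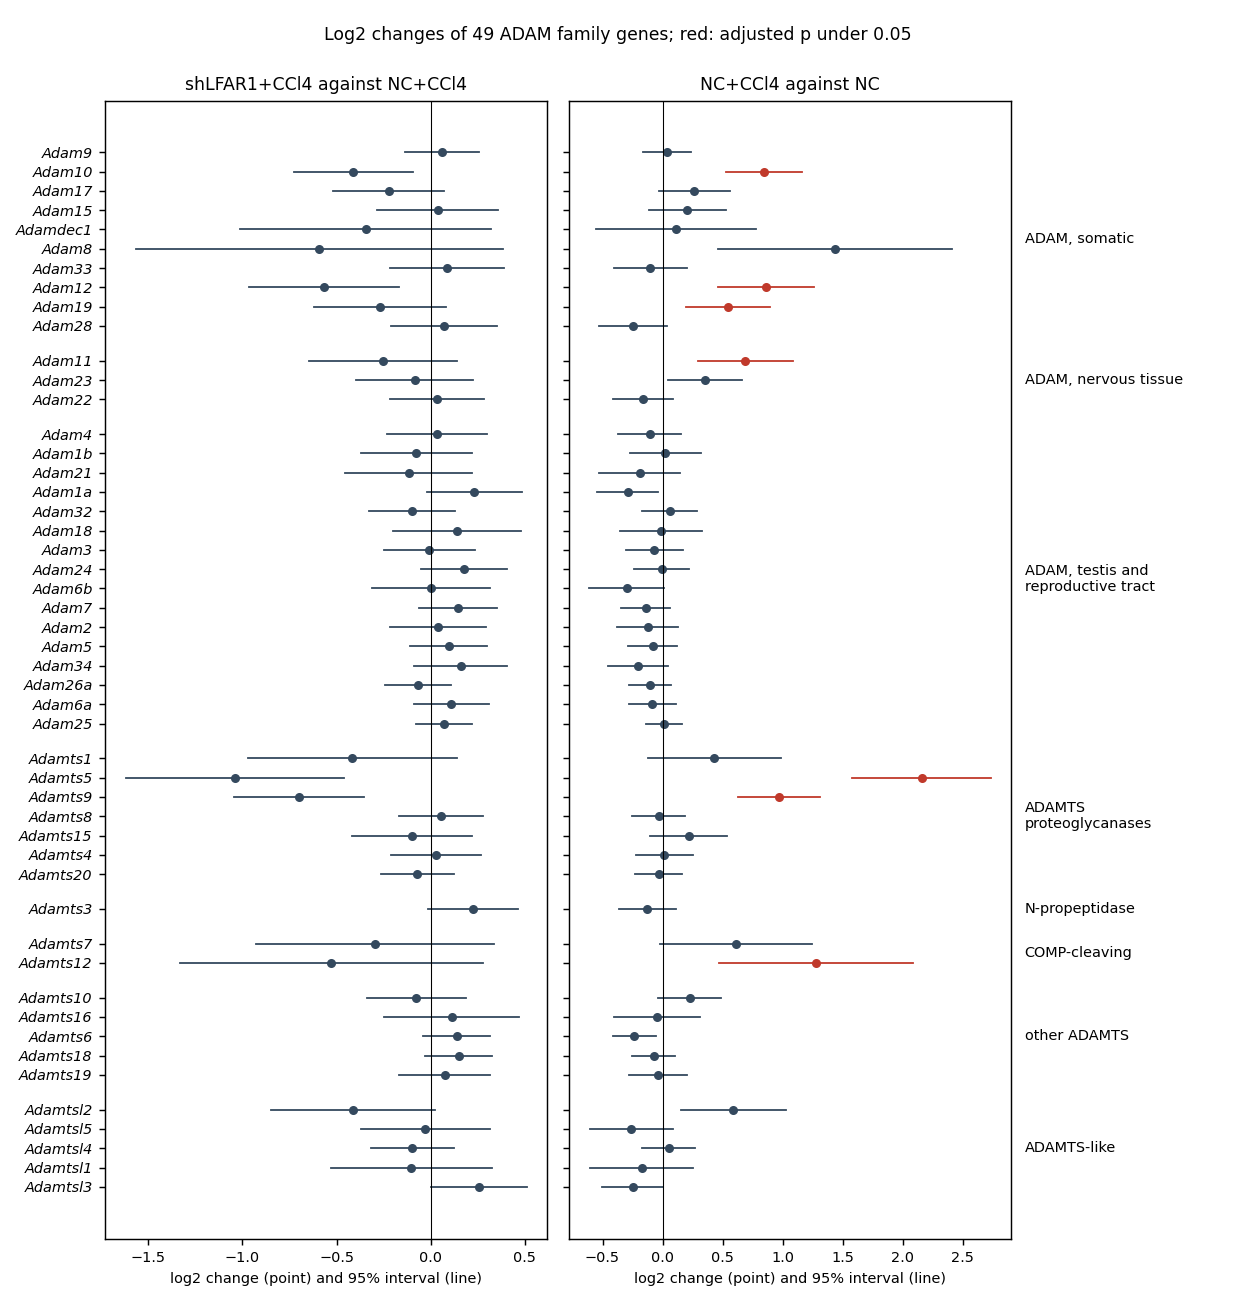
Log2 change with its 95% interval for all 49 members, in shLFAR1+CCl4 against NC+CCl4 (left) and NC+CCl4 against NC (right), ordered by role and by mean level within a role. Red marks adjusted p under 0.05. The 7 red genes are all at the right, and the genes of testis and the reproductive tract stay near 0 in both panels. The latter had a mean log2 level of 3.22 in NC+CCl4 arrays, which may be background.

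In oil-treated livers the hairpin virus alone called no gene at all (shLFAR1 against NC, 0% of all genes), with 5 of 49 members at an unadjusted p under 0.05, or 10.2%, against 2.77% of all genes. Adam26a, a testis ADAM, had 2.69, 2.52 and 2.68 in shLFAR1 livers and 2.92, 2.78 and 2.92 in NC livers (log2 change -0.25 ± 0.08). Adam25, another testis gene, had 2.41, 2.36 and 2.37 in shLFAR1 livers and 2.20, 2.08 and 2.24 in NC livers (0.21 ± 0.07). These arrays did not overlap, at values near the bottom of the array's range, and the adjusted p was 1 for each. Adamtsl5, an ADAMTS-like protein, had 4.43, 4.65 and 4.14 in shLFAR1 livers and 4.72, 4.75 and 4.87 in NC livers (-0.38 ± 0.16, adjusted p = 1). The 7 genes raised by CCl4 changed by -0.32 to 0.09.

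The interaction, the CCl4 response with the hairpin virus minus that with the control virus, was called for none of 49 members, with 0.022% of all genes called and 6 of 49 below an unadjusted p of 0.05, or 12.2%, against 9.51% of all genes. At the threshold of the methods Adamts5 and Adamts9 passed, both lower, where 4% of all genes passed, 1.41% higher and 2.59% lower. Adamts9 had -0.73 ± 0.22 (adjusted p = 0.347), Adamts5 -1.13 ± 0.38 (adjusted p = 0.379) and Adamts6, a relative of Adamts10, 0.32 ± 0.12 (adjusted p = 0.414). The 95% interval was -1.21 to -0.24 for Adamts9 and -1.95 to -0.31 for Adamts5. For Adamts12 it ran from -1.35 to 0.93. Without shLFAR1+CCl4 replicate 3, Adam8 and Adam12 were called lower (Adam12 -0.85, adjusted p = 0.0395), or 4.08% of the family beside 3.2% of all genes, 2.15% lower. With array weights Adamts9 alone was called, where 2.16% of all genes were, 1.05% lower. Without both CCl4 arrays that stand apart, Adam8, Adam10 and Adam12 were called lower, where 4.27% of all genes were called, 2.53% lower. Here too the omission of shLFAR1+CCl4 replicate 3, singled out by its values, favours lower calls. For Adamts12 the value without shLFAR1+CCl4 replicate 3 was -0.80, against -0.21 with all arrays, and it was called in neither.

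Probe sets of a gene did not always move alike. Of 49 members 22 had several. Adamts5 had 3 probe sets with changes of 2.16, 1.61 and 0.81, all called when every probe set was tested singly, and a dim one at -0.08. Adam10 was called by its brightest probe set, whereas the others gave 0.50, 0.26 and -0.22 and were not. With the mean of all probe sets the changes of the 7 called genes were smaller, from 0.23 for Adam19 to 1.12 for Adamts5, Adam10 was no longer called (adjusted p = 0.116) and Adam17 was (adjusted p = 0.0336).

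**Figure D4:**
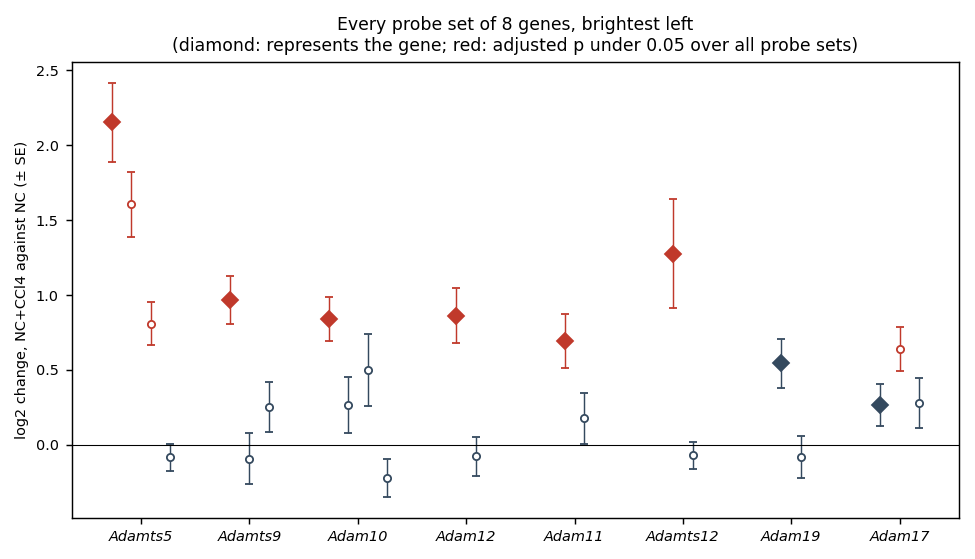
Log2 change in NC+CCl4 against NC, with its SE, for every single-symbol probe set of the 7 called genes and Adam17. Diamonds represent the gene, open circles are its other probe sets, and red marks adjusted p under 0.05 over all probe sets. Adamts5 has 3 red probe sets between 0.81 and 2.16, Adam17 has 1 at 0.64 that does not represent the gene, and Adam19 is not red here.

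Of 6 inhibitors of these proteases, Timp3, Timp2 and Timp1 rose with CCl4 under the control virus and A2m fell, while Timp4 and Reck were not called. Of all genes, 7.66% rose and 5.41% fell in this contrast. Timp3, the inhibitor known to block ADAM17 and aggrecanases, had 7.05, 7.03 and 7.62 in NC+CCl4 livers and 5.85, 6.01 and 6.02 in NC livers (1.27 ± 0.16, adjusted p = 0.000692). In shLFAR1+CCl4 livers it had 6.09, 6.31 and 6.39. Against NC+CCl4 this was -0.98 ± 0.16 with adjusted p = 0.0239, the only inhibitor called in that contrast. The call was lost when shLFAR1+CCl4 replicate 1 or 2 was left out (adjusted p = 0.148 and 0.0983), where 0.022% and 0.044% of all genes were called. It was also lost without shLFAR1 replicate 1 or 2 (adjusted p = 0.052 and 0.0517) and with the mean of all probe sets. With the replicate block within the CCl4 arrays it was lost too (adjusted p = 0.198), where 0% of all genes were called. Timp2 changed by 1.81 ± 0.27 and Timp1, a wide inhibitor of metalloproteases, by 1.64 ± 0.36 with CCl4 under the control virus. The fall of A2m, a broad protease trap, was lost in 15 of 22 alternatives.

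Of 13 partners of ADAM10 and ADAM17 and propeptide convertases, 3 were called in NC+CCl4 against NC, where 13.1% of all genes were called. Rhbdf1 and Rhbdf2, the iRhoms that carry ADAM17 to the surface, rose by 0.97 ± 0.16 and 0.43 ± 0.13 (0.80 and 0.27 without NC+CCl4 replicate 1, with Rhbdf2 no longer called), and the ADAM10-binding tetraspanin Tspan33 fell by 0.68 ± 0.17. The call was lost for Rhbdf2 in 16 of 23 alternatives and for Tspan33 in 4. Furin, which removes the propeptide, changed by -0.15. None of the 13 was called in shLFAR1+CCl4 against NC+CCl4.

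Of 34 measured shedding substrates, 10 rose and 4 fell with CCl4 under the control virus, beside 7.66% and 5.41% of all genes. Those that rose included the hyaluronan receptor Cd44 (2.89 ± 0.48), Notch1 (0.68 ± 0.19), App (1.20 ± 0.19), the receptor kinase Axl (2.13 ± 0.32), E-cadherin Cdh1 (1.52 ± 0.23) and the TNF receptor Tnfrsf1a (0.43 ± 0.09). Notch1 lost its call in 11 of 23 alternatives. Those that fell were Cd163, Sdc4, Met and Ghr. Met, the hepatocyte growth factor receptor, had 9.64, 9.60 and 9.48 in shLFAR1+CCl4 livers, against 8.85, 8.96 and 8.77 in NC+CCl4 livers. It was higher by 0.71 ± 0.10 (adjusted p = 0.0141), and syndecan Sdc4 was higher by 1.11 ± 0.17 (adjusted p = 0.0212), the 2 substrates called there. Neither was called with shLFAR1+CCl4 replicate 1 or 2 left out (adjusted p from 0.0898 to 0.11), where 0.022% and 0.044% of all genes were called. With the replicate block within the CCl4 arrays neither was called (adjusted p = 0.198 for each), and 0% of all genes were.

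Of 18 measured matrix substrates, 9 rose with CCl4 under the control virus and none fell, beside 7.66% and 5.41% of all genes. Col1a1 (3.81 ± 0.57), Col1a2 (3.70 ± 0.37) and Col3a1 (3.71 ± 0.41), whose propeptides are removed by ADAMTS propeptidases, rose most, and the proteoglycans Fmod (1.73 ± 0.24), Bgn (1.34 ± 0.20) and Dcn (0.90 ± 0.15) rose with them. The classical aggrecanase substrate Acan changed by -0.08 and Vcan by -0.02, without a call. Fibromodulin Fmod was the single substrate called lower in shLFAR1+CCl4 against NC+CCl4, with 4.83, 5.05 and 5.04 in shLFAR1+CCl4 livers, against 6.28, 6.31 and 6.97 in NC+CCl4 livers (-1.54 ± 0.24, adjusted p = 0.0193). The call was lost without shLFAR1+CCl4 replicate 1 or 2 (adjusted p = 0.112 and 0.0921) or NC+CCl4 replicate 3 (0.0552). These fits called 0.022%, 0.044% and 0.148% of all genes. With the replicate block within the CCl4 arrays it was lost too (adjusted p = 0.198), where 0% of all genes were called.

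**Figure D5:**
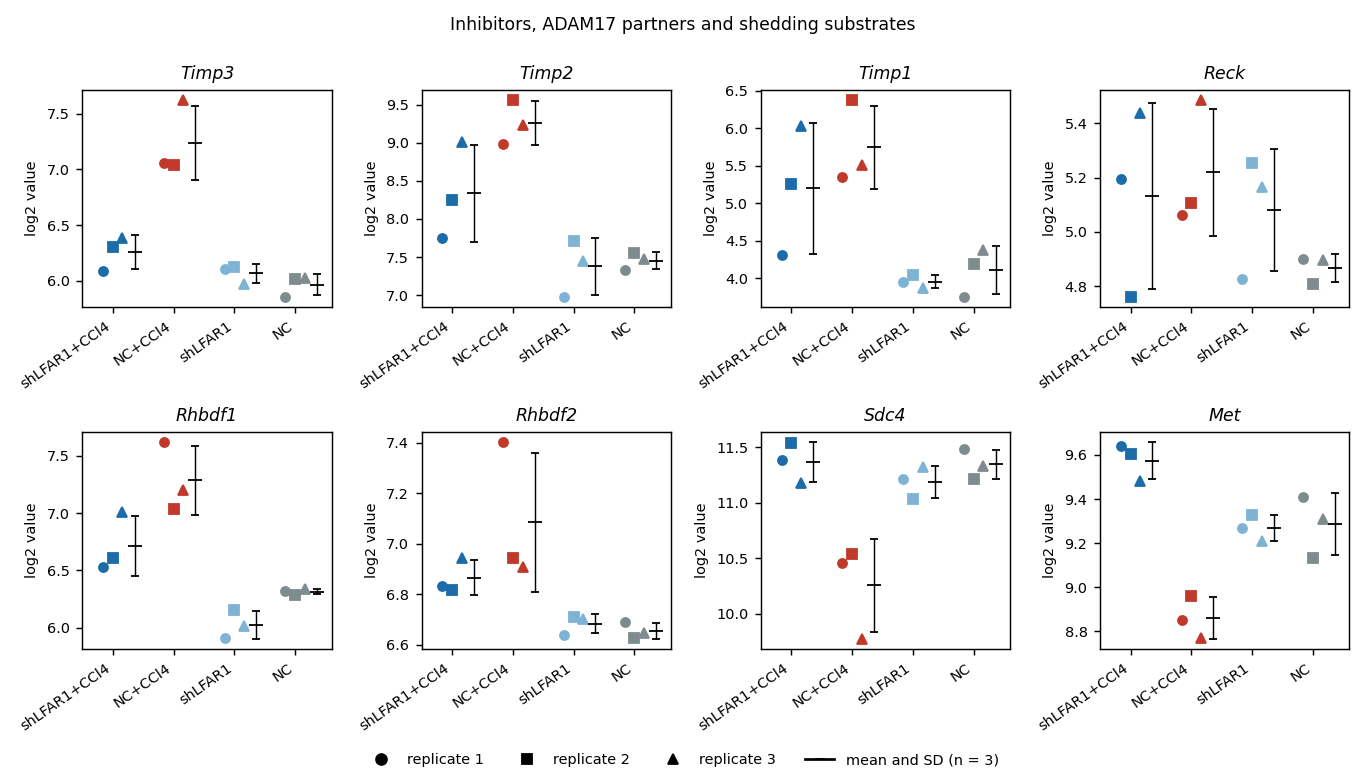
Log2 values on each array for 4 inhibitors (Timp3, Timp2, Timp1, Reck), the ADAM17 partners Rhbdf1 and Rhbdf2, and the shedding substrates Sdc4 and Met, from shLFAR1+CCl4 at the left to NC at the right, with mean and SD (n = 3). Timp3 in shLFAR1+CCl4 lies at 6.09 to 6.39, below every NC+CCl4 array, while Met and Sdc4 lie above every NC+CCl4 array.

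In NC+CCl4 against NC, 7.66% of all genes were called higher and 5.41% lower, and the marker counts stand beside these shares. Of 12 markers of stellate cells and myofibroblasts, 9 rose in this contrast. Their mean log2 level was 7.79 to 8.98 in shLFAR1+CCl4 and 9.16 to 9.25 in NC+CCl4 arrays, and 7.10 to 7.69 in shLFAR1 and 7.23 to 7.43 in NC arrays. Macrophage markers rose in 8 of 11, with 7.12 to 8.35 in shLFAR1+CCl4, 8.06 to 8.76 in NC+CCl4, 6.48 to 6.65 in shLFAR1 and 6.43 to 6.71 in NC arrays. Replicate 3 of shLFAR1+CCl4 had the upper value of its group in both lists. Called higher were 3 of 8 neutrophil, 2 of 11 endothelial and 1 of 8 lymphocyte markers, with none of 5 for cholangiocytes, and 2 of 10 hepatocyte markers fell. In shLFAR1+CCl4 against shLFAR1, 2 of 8 neutrophil markers were called higher, where 0.324% of all genes were. No marker of the other cell types was called there. Col1a1, Col1a2, Col3a1, Dcn and Lum stand in both the stellate and the matrix list. In shLFAR1+CCl4 against NC+CCl4 no marker of stellate cells or macrophages was called, with median changes of -0.87 and -0.78. The part of these markers in the changes of the family was not tested.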

How the data were processed

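Total RNA of 12 mouse livers, in 4 groups of 3, was measured on Affymetrix Mouse Genome 430 2.0 arrays. The deposited values are log2 intensities that the authors summarized and normalized; the method is not given in the sources used here. Groups came from the sample labels, which call the replicates biological. The members and all gene lists were chosen with earlier results of these data known.

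Of 45101 probe sets, 64 were control probe sets, 34945 had 1 symbol, 932 several and 9160 none. Each of 18193 genes was represented by its single-symbol probe set of highest mean. A model of the 4 groups was fitted with limma 3.58.1 in R 4.3.3 (lmFit, eBayes with an intensity trend, 8 residual degrees of freedom), two-sided, with Benjamini-Hochberg adjustment over all genes and a threshold of 0.05. The pooled spread is one limit, since the median SD over genes was 0.143 in shLFAR1+CCl4, 0.172 in NC+CCl4, 0.106 in shLFAR1 and 0.131 in NC. The fit was tested on simulated data. Alternatives were the mean of all probe sets of a gene, each probe set singly, quantile normalization, no intensity trend, a robust prior, array weights, genes above the median level, the fold and p threshold of the methods, a replicate block, the 6 arrays of a comparison alone, and each array left out in turn. Promoter windows came from RefSeq.

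Members named with all values were those called in any contrast, 10 genes chosen for known roles (Adamts2 and Adamts13 among them not analysed here), and in a contrast without a call the 3 with the smallest p. Adam8 and other members were added after their values were seen. Partner, substrate and inhibitor genes were named from their lists after their values were seen.

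Deviations from the group means of same-numbered CCl4 arrays correlated at 0.126, 0.229 and 0.192 (shLFAR1+CCl4 with NC+CCl4). Differently numbered arrays correlated at -0.234 to 0.093 in that contrast, and at up to 0.188 in NC+CCl4 against NC. These values do not establish a pairing. The numbers were used as a block on the data alone, and the labels give no pairs. In the other contrasts same-numbered arrays correlated between -0.135 and 0.150.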

Additional observations from a re-analysis of the deposited data

Results flagged for a closer look

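The following 5 probe sets, which do not represent a gene in the comparisons, changed with CCl4 under the control virus (NC+CCl4 against NC, limma, adjusted p under 0.05 over all probe sets). A second probe set of Adam17 changed by 0.64. Other probe sets of Adamts5 changed by 1.61 and by 0.81. A dim probe set of Adamtsl1 changed by 0.69, where the brighter one that represents the gene gave -0.17. A probe set annotated to both Adam1a and Mapkapk5, which cannot be given to either, changed by -0.63.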

How the results depend on the processing

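In NC+CCl4 against NC, Adamts5 and Adamts9 were called under all 23 alternatives and Adam12 under all 22 that tested it. The size of the change was less stable than the call. The smallest log2 change over the alternatives was 1.12 for Adamts5, 0.38 for Adamts9 and 0.39 for Adam12. The main values were 2.16, 0.97 and 0.86. The count of called members was 4 with the mean of all probe sets, where 12.4% of all genes were called. It was 4 to 9 over arrays left out in turn. It was 4 without NC+CCl4 replicate 1 (12.1% of all genes), 4 without NC replicate 2 (7.26%) and 9 without shLFAR1+CCl4 replicate 3 (16.1%). In shLFAR1+CCl4 against shLFAR1 the count was 2 at the study's threshold (fold over 1.6, unadjusted p under 0.05), which 2.65% of all genes passed. It was 0 to 0 over arrays left out. In shLFAR1+CCl4 against NC+CCl4 it was 4 with array weights (5.05% of all genes called) and 2 at the study's threshold (3.89%). It was 6 without the 2 CCl4 arrays that stand apart (8.47% of all genes called, 4.83% lower). Over arrays left out it was 0 to 6, with 6 without shLFAR1+CCl4 replicate 3 (7.29% of all genes). For the interaction it was 1 with array weights (2.16% of all genes called) and 2 at the study's threshold (4%). It was 3 without the 2 CCl4 arrays (4.27% of all genes called) and 0 to 2 over arrays left out. Leaving out those 2 arrays, testing probe sets singly and the block within the CCl4 arrays were chosen after seeing the data. The cause of these moves was not tested.

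For the partner lists in shLFAR1+CCl4 against NC+CCl4, called inhibitors numbered 0 with the mean of all probe sets (0.214% of all genes called). They numbered 0 with quantile normalization (0.291%). Array weights gave 2 inhibitors, 1 partner, 7 shedding and 9 matrix substrates, where 5.05% of all genes were called. The study's threshold gave 2 inhibitors, 7 shedding and 8 matrix substrates, and 3.89% of all genes passed it. Leaving out the 2 CCl4 arrays gave 2 inhibitors, 1 partner, 11 shedding and 9 matrix substrates, where 8.47% of all genes were called, 3.64% higher and 4.83% lower. The 6 arrays of the comparison alone gave 0 inhibitors, 0 shedding and 0 matrix substrates, and 0% of all genes. Over arrays left out, inhibitors ranged from 0 to 2, partners from 0 to 1, shedding substrates from 0 to 9 and matrix substrates from 0 to 9. The upper ends came without shLFAR1+CCl4 replicate 3, where 7.29% of all genes were called. In NC+CCl4 against NC, inhibitors ranged from 2 to 4, partners from 1 to 3 and shedding substrates from 9 to 15. The lower ends came without NC replicate 1, where 6.94% of all genes were called. Partners were 1 with 6 arrays (9.13% of all genes) and shedding substrates 9 at the study's threshold (8.84%).

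With the replicate block over all 12 arrays, 2 matrix substrates were called in shLFAR1+CCl4 against NC+CCl4 (0.302% of all genes). In NC+CCl4 against NC 7 members were called (13.4% of all genes). With the replicate block within the 6 CCl4 arrays, 0 inhibitors, 0 shedding and 0 matrix substrates were called, and 0% of all genes.

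The sign turned for Adam15 with the mean of all probe sets (-0.016) and Adam9 without NC+CCl4 replicate 3 (-0.0065, with 0.094 the highest over arrays left out) in NC+CCl4 against NC, and in the interaction for Adam11 without shLFAR1+CCl4 replicate 2 (0.077, lowest -0.27) and for Adamts12 without shLFAR1+CCl4 replicate 1 (0.12) or 2 (0.042) or NC+CCl4 replicate 2 (0.0035, lowest -0.80). None of these was called. With 3 arrays a group, their number limits the precision.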
